A study of Mus musculus with 14 samples.

Results

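Genes of cholesterol synthesis were followed through the RNA sequencing of IL-1β-treated mouse bone marrow cells, namely Hmgcs1, Idi1, Fdps, Fdft1, Sqle, Lss, Cyp51 and Insig1. They were taken by name, which gave 8 of the 55487 genes in the count files, and all 8 had enough reads to be tested in every population. None of the 8 is itself a receptor or carrier for cholesterol uptake, so uptake genes are given below as a separate list. LSK cells (Lin-Sca1+c-kit+, the stem and multipotent progenitor fraction) and LK cells (Lin-c-kit+, the committed myeloid progenitor fraction) were sorted from Mx1Cre; Jak2VF/+ mice on a C57BL/6 background, so PBS and IL-1β mice alike carried the heterozygous Jak2V617F allele. According to the methods, Cre was driven by the interferon-inducible Mx1 promoter and induced with pI-pC, and the mice were irradiated C57BL/6 recipients of this marrow, so cells of the host outside the transplanted marrow were wild type. The mice received intraperitoneal PBS (3 LSK and 3 LK libraries) or IL-1β (2 and 2 libraries), 0.5 μg per dose and 3 doses per week, for 16 weeks (the labels print the mass unit as g). MSC (mesenchymal stromal cells) came from wild-type C57BL/6 marrow cultured for 21 days, and were exposed to PBS (2 libraries) or 5 ng/ml IL-1β (2 libraries) for 72 h. The labels give no age for the sequenced mice and do not say that each library came from a separate mouse or culture, so the p-values measure only the spread between these libraries.

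Cholesterol is built from acetyl-CoA through mevalonate and the isoprenoid diphosphates to squalene, which is then closed into lanosterol and trimmed to cholesterol. Transcription of nearly every enzyme of this route is driven by SREBP proteins, which leave the endoplasmic reticulum with their escort Scap when sterols are low. Insig proteins hold Scap back when sterols are plentiful, and dividing cells, macrophages and stromal cells all draw on the route for membranes.

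By role, Hmgcs1 forms HMG-CoA (chr13:119690379-119708260, GRCm38, + strand), Idi1 interconverts the isopentenyl diphosphates (chr13:8885501-8892451, +) and Fdps joins them into farnesyl diphosphate (chr3:89093588-89101959, -). Fdft1 condenses farnesyl diphosphate to squalene (chr14:63145150-63179578, -), Sqle oxidises squalene (chr15:59315077-59331192, +), Lss cyclises it to lanosterol (chr10:76531588-76557138, +) and Cyp51 removes a methyl group from lanosterol (chr5:4081145-4104746, -). Insig1 is the regulator of the set and is not an enzyme (chr5:28071363-28078662, +).

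Promoter sequences bear on genes that share a regulator, and RefSeq windows (GRCm38.p6, 250 bases before to 50 after the start) were matched for 5 of the 8 genes. The 3 motifs named here were searched on both strands, and no matches overlapped each other. The NF-Y box CCAAT and the GC box GGGCGG were present in all 5 windows, against 37.4% and 35.7% of the 32851 windows of all genes. The sterol regulatory element, spelled TCACNCCAC, was present only in Hmgcs1 among the 5, starting 137 bases before its start, against 1.24% of all windows. Only 0.441% of all windows held both this element and an NF-Y box, as Hmgcs1 did. The 250 bases before the start are shown for Hmgcs1, the gene with the sterol element, for Lss, the enzyme that rose in MSC with the most reads, and for Insig1, the regulator. Capitals mark matches to the motifs on either strand. The windows are chr13:119690101-119690350 (+), chr10:76531355-76531604 (+) and chr5:28071162-28071411 (+).
Hmgcs1: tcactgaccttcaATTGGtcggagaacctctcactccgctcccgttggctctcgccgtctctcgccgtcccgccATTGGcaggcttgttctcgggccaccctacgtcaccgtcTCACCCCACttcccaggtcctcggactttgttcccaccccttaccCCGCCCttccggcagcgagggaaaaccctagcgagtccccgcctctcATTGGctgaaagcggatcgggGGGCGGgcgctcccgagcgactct
Lss: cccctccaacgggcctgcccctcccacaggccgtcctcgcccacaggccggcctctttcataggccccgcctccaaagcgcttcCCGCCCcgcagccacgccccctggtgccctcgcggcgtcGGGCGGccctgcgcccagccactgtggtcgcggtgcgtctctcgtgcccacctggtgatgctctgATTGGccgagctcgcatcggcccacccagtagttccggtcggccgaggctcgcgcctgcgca
Insig1: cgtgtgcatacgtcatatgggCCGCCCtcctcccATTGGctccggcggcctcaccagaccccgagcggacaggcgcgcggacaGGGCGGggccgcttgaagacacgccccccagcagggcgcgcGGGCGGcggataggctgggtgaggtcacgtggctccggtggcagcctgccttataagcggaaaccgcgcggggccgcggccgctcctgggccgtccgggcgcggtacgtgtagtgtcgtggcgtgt

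The libraries held 4393233 to 18544346 counted read pairs for LSK and LK and 5834909 to 30871055 for MSC, and within LSK and within LK both IL-1β libraries had fewer read pairs than any PBS library, so that depth and treatment cannot be told apart there. Levels are given as CPM (read pairs on the gene per 1e6 counted, after TMM scaling, a correction for library composition) within each population unless stated. The labels were set against marker lists. In every MSC library 14 of 15 mesenchymal markers reached 1 CPM, and Lepr was at 0 in both PBS libraries. All 15 macrophage markers did so too, with a summed level of 18102 to 22503 CPM in PBS and 44077 to 45235 CPM in IL-1β, above the mesenchymal sum of 4369 to 8410 and 8085 to 8175 CPM. Lyz2, a lysozyme, made up much of that sum, and without it the sum was 12276 to 14063 CPM in PBS and 19169 to 20172 CPM in IL-1β. With IL-1β 13 of the 15 macrophage markers were higher and 2, Cd68 and Tyrobp, were lower, each with no overlap, and the level of the median marker was 793 to 907 CPM in PBS and 770 to 773 CPM in IL-1β. Thus the libraries labelled MSC held more RNA of macrophage markers than of mesenchymal ones, and in such bulk samples fewer cells of a type and less RNA per cell cannot be told apart. Between LSK PBS and IL-1β libraries the summed stem and progenitor markers stood at 1662 to 2092 and 1052 to 1220 CPM, and the neutrophil granule markers at 1992 to 2804 and 9040 to 10517 CPM. In LK the granule markers stood at 4334 to 9237 CPM with PBS and 16922 to 19689 CPM with IL-1β. The stem and progenitor sums overlapped there, at 610 to 781 and 552 to 711 CPM. Erythroid markers stood at 1576 to 2434 and 1165 to 1238 CPM in LK, and at 303 to 381 and 443 to 451 CPM in LSK. Lymphoid markers stood at 39.3 to 56.3 and 7.44 to 8.55 CPM in LK, and at 239 to 415 and 47.2 to 57.7 CPM in LSK. The part of these differences in the results was not tested.

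Sequence shared with other genes limits what the counts hold, since read pairs with several matches were not counted. Of the 50-base stretches of the main mRNA, 82.0% also occurred in transcripts of other genes for Fdps, 39.8% for Fdft1 and 30.5% for Idi1. The share was 14.5% for Hmgcs1, 4.35% for Lss, 3.17% for Cyp51, 2.49% for Insig1 and 0% for Sqle. In addition, 26.7% of the exon bases of Fdps overlapped Gm43738 on the same strand. The level of Fdps is therefore understated and uncertain, which holds to a lesser degree for Fdft1 and Idi1.

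In MSC, the 2 enzymes Fdps and Lss rose with IL-1β, by 2.72-fold and 2.04-fold. The other 6 genes did not pass both thresholds, but their IL-1β libraries stood above their PBS libraries. The call rule was an adjusted p under 0.05 in edgeR's quasi-likelihood test together with a log2 fold change over 0.5 in size, a rule that 7.14% of the 13239 tested genes met upwards and 4.31% downwards. For all 8 genes the treatments did not overlap and IL-1β was higher, against 31.3% of all genes. The median log2 fold change was 0.69 for the 8 genes and 0.00 for all tested genes, and 8 of 8 were positive against 50.4% of all genes.

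Hmgcs1, the entry enzyme, stood at 206 and 173 CPM with PBS and at 211 and 224 CPM with IL-1β, and its log2 fold change was 0.20 (SE 0.12, edgeR adjusted p = 0.331). Idi1 stood at 25.2 and 15.7 CPM with PBS and at 36.9 and 36.3 CPM with IL-1β (log2 fold change 0.88, SE 0.23, edgeR adjusted p = 0.0606). Fdps stood at 2.17 and 2.86 CPM with PBS, from 13 and 38 read pairs, and at 6.98 and 7.06 CPM with IL-1β, from 213 and 80 read pairs. Its log2 fold change of 1.44 (SE 0.27, edgeR adjusted p = 0.0274) was the largest of the 8, on the lowest level and with the sequence limit given above.

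Fdft1, at the branch to sterols, stood at 66.7 and 70.4 CPM with PBS and 95.4 and 96.0 CPM with IL-1β. Its log2 fold change of 0.48 (SE 0.10) had an edgeR adjusted p of 0.0338 but lay under the fold threshold. Sqle stood at 93.0 and 50.5 CPM with PBS and 113 and 117 CPM with IL-1β (log2 fold change 0.70, SE 0.29, edgeR adjusted p = 0.191). The 2 PBS libraries of Sqle lay further apart than the higher of them lay from the IL-1β libraries. Lss stood at 38.8 and 30.1 CPM with PBS and 66.2 and 73.2 CPM with IL-1β (log2 fold change 1.03, SE 0.15, edgeR adjusted p = 0.0154). Lss is the clearest case of the 8, since its treatments were far apart, it rested on 233 to 2020 read pairs per library and little of its sequence is shared.

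Cyp51 stood at 127 and 103 CPM with PBS and 145 and 158 CPM with IL-1β (log2 fold change 0.40, SE 0.14, edgeR adjusted p = 0.115). Insig1 stood at 123 and 82.3 CPM with PBS and 160 and 168 CPM with IL-1β (log2 fold change 0.68, SE 0.19, edgeR adjusted p = 0.0778). In 6 of the 8 genes the PBS library of replicate 3 was the lower of the 2, the exceptions being Fdps and Fdft1. That library also had the lower mesenchymal sum, 4369 against 8410 CPM in replicate 2, and the lower macrophage sum, 18102 against 22503 CPM. Its summed proliferation genes were higher, at 1123 against 832 CPM. The part of these differences in the results was not tested. The macrophage sum moved with the 8 genes, being higher in both IL-1β libraries with or without Lyz2, as were 13 of the 15 markers. The level of the median marker did not rise, and the part of these cells was not tested.

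The number of genes called depended on the libraries and the tool. It was 2 with all 4 libraries, 6 without PBS replicate 2, 4 without PBS replicate 3, and 0 without either IL-1β library. DESeq2 and limma-voom each called 4, adding Idi1 and Insig1 to Fdps and Lss, and a joint fit of all 14 libraries called 1. The number called over all genes also rose and fell with the library left out, so that movement is not particular to the 8 genes. All 8 log2 fold changes were positive under each of the 3 scalings tried.

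**Figure D1:**
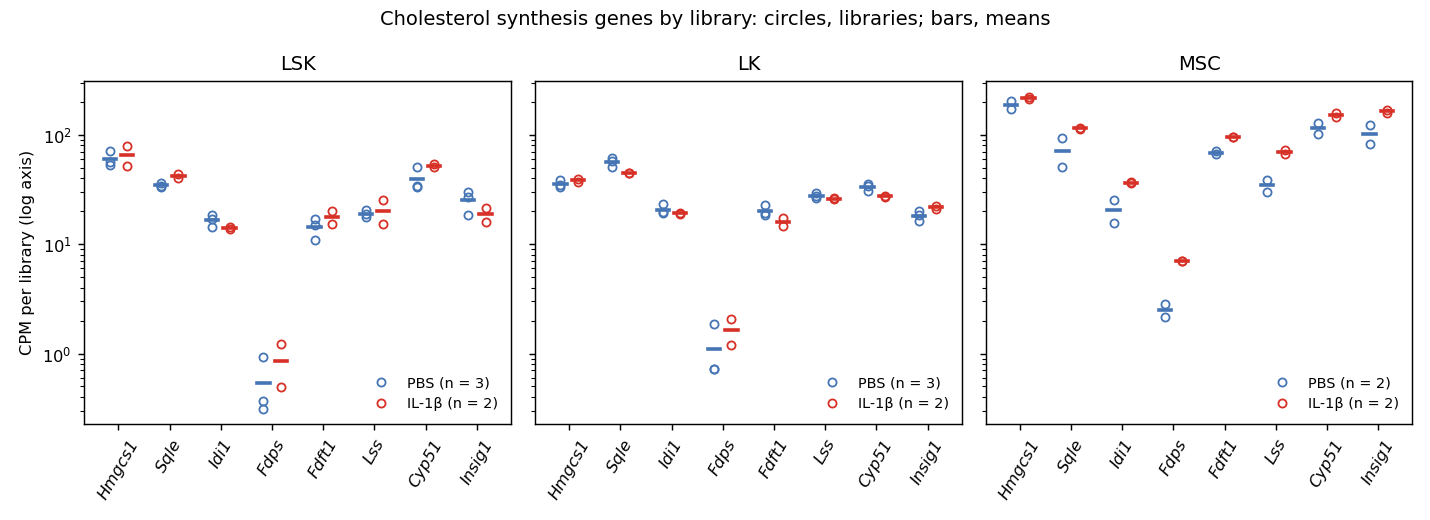
Level of each gene (CPM, log axis) in every library of LSK, LK and MSC, with PBS in blue and IL-1β in red; circles are libraries and bars are group means. In MSC all red circles lie above the blue ones for each gene, whereas in LSK and LK most overlap or lie close. Fdps has the lowest counted level throughout, with the limit of shared sequence given in the text.

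In LK cells none of the 8 genes was called in either direction, where 6.77% of 12835 tested genes were called higher and 2.57% lower. DESeq2 and limma-voom also called none, and 1 of the 8 had an unadjusted p under 0.05, downwards, against 10.8% of all genes. The median log2 fold change was -0.10 against -0.03 for all genes, with 3 of 8 values positive against 47.1% of all genes. The treatments did not overlap for 4 genes lower with IL-1β, namely Sqle, Fdft1, Lss and Cyp51, and for 1 higher, Insig1, against 22.2% and 23.5% of all genes. With all 14 libraries scaled together, Insig1 overlapped and Idi1 stood apart, lower with IL-1β, so for these genes the separation depended on the scaling.

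Sqle, the epoxidase, stood at 61.6, 58.2 and 50.6 CPM with PBS and 44.8 and 44.6 CPM with IL-1β, and its log2 fold change was -0.35 (SE 0.13, unadjusted p = 0.0285, adjusted p = 0.143 in edgeR's fit). Both IL-1β libraries lay under the lowest PBS library, but the difference did not pass the adjusted threshold. Cyp51 stood at 35.7, 30.4 and 33.9 CPM with PBS and 27.7 and 27.1 CPM with IL-1β (log2 fold change -0.28, SE 0.14, edgeR adjusted p = 0.264). Fdft1 stood at 22.8, 18.4 and 19.5 CPM with PBS and 17.5 and 14.6 CPM with IL-1β (log2 fold change -0.33, SE 0.19, edgeR adjusted p = 0.322). For these 3 sterol-branch enzymes the groups were separate by a small margin only.

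Lss stood at 29.4, 27.4 and 26.3 CPM with PBS and 26.0 and 26.3 CPM with IL-1β in LK, so the treatments nearly touched (log2 fold change -0.08, SE 0.14, edgeR adjusted p = 0.758). Insig1 went the other way, at 20.1, 18.4 and 16.2 CPM with PBS and 22.5 and 20.9 CPM with IL-1β (log2 fold change 0.25, SE 0.17, edgeR adjusted p = 0.410). Hmgcs1 stood at 34.9, 33.4 and 39.0 CPM with PBS and 39.5 and 37.4 CPM with IL-1β, with a log2 fold change of 0.11 (SE 0.14). Idi1 stood at 19.2, 19.7 and 23.3 CPM with PBS and 19.5 and 18.8 CPM with IL-1β, with a log2 fold change of -0.11 (SE 0.17). Both of these overlapped between treatments. Fdps rested on 9, 36 and 10 read pairs with PBS and 9 and 13 with IL-1β, too few for a useful comparison (log2 fold change 0.54, SE 0.67).

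In LSK cells none of the 8 genes was called either, where 0.320% of 13132 tested genes were called higher and 0.312% lower, and none had an unadjusted p under 0.05, against 8.01% of all genes upwards and 10.5% downwards. DESeq2 and limma-voom called none as well. The median log2 fold change was 0.20 against -0.06 for all genes, with 6 of 8 values positive against 46.5% of all genes. Sqle was the gene whose IL-1β libraries lay above all PBS libraries and Idi1 the gene whose IL-1β libraries lay below them, against 18.2% and 21.4% of all genes.

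Sqle stood at 35.98, 33.4 and 34.4 CPM with PBS and 43.7 and 40.2 CPM with IL-1β in LSK (log2 fold change 0.28, SE 0.25, edgeR adjusted p = 0.582). Idi1 stood at 16.97, 18.6 and 14.4 CPM with PBS and 14.4 and 13.9 CPM with IL-1β (log2 fold change -0.24, SE 0.35, edgeR adjusted p = 0.752). Idi1 thus nearly touched between the treatments, and with all 14 libraries scaled together they overlapped. Cyp51 stood at 33.9, 50.8 and 33.2 CPM with PBS and 50.6 and 53.8 CPM with IL-1β (log2 fold change 0.41, SE 0.28, edgeR adjusted p = 0.463). PBS replicate 2 was at the level of the IL-1β libraries, while the other PBS libraries were lower.

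Insig1 stood at 27.2, 18.6 and 29.9 CPM with PBS and 21.3 and 16.1 CPM with IL-1β in LSK (log2 fold change -0.43, SE 0.35, edgeR adjusted p = 0.536). Its lowest PBS library lay between the 2 IL-1β libraries. Hmgcs1 stood at 56.3, 71.0 and 53.3 CPM with PBS and 51.7 and 78.8 CPM with IL-1β, so the IL-1β libraries held both the lowest and the highest value (log2 fold change 0.11, SE 0.28). Lss did likewise, at 20.7, 19.0 and 17.5 CPM with PBS and 25.2 and 15.4 CPM with IL-1β (log2 fold change 0.10, SE 0.35). Fdft1 stood at 17.1, 10.8 and 15.03 CPM with PBS and 15.2 and 20.1 CPM with IL-1β (log2 fold change 0.30, SE 0.37). Fdps rested on 5, 4 and 16 read pairs with PBS and 10 and 2 with IL-1β, with a log2 fold change of 0.69 (SE 1.22).

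**Figure D2:**
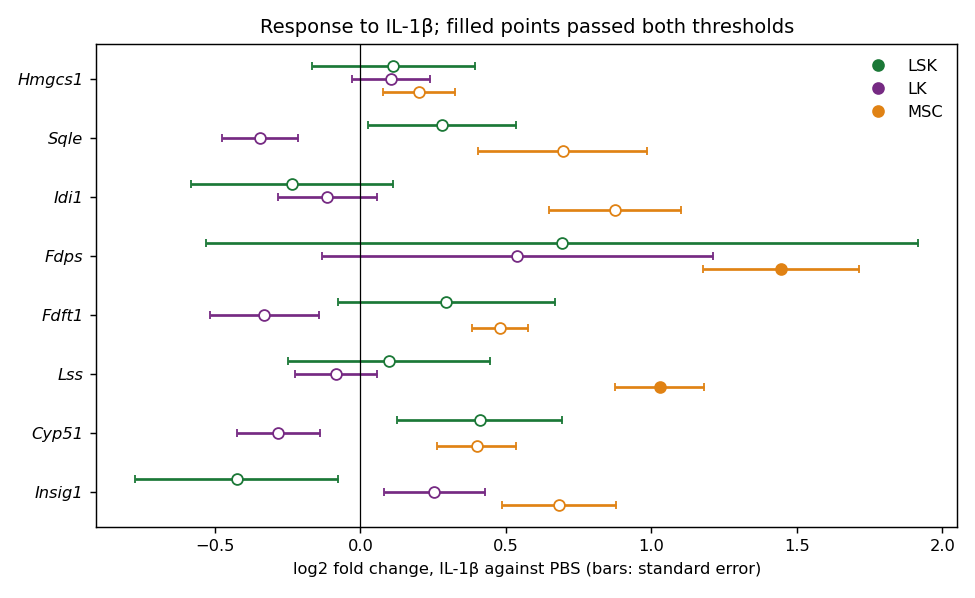
Log2 fold change of each gene, IL-1β against PBS, in LSK (green), LK (purple) and MSC (orange), with bars of 1 standard error; filled points passed both thresholds. All 8 MSC points lie right of 0 and the points of Fdps (1.44) and Lss (1.03) are filled, while the LSK and LK points lie on both sides of 0.

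Whether LSK and LK differed in their response was tested as an interaction over the 10 libraries. None of the 8 genes was called, where 0.00723% of 13839 tested genes were called higher and 0.0217% lower, and DESeq2 and limma-voom called none. The difference in log2 fold change (LSK minus LK) was 0.59 (SE 0.26) for Sqle, the one gene of the 8 with an unadjusted p under 0.05 (0.0407, adjusted p = 0.333 in edgeR's fit), against 4.68% of all genes upwards. It was 0.66 (SE 0.31) for Cyp51, 0.58 (SE 0.40) for Fdft1 and -0.72 (SE 0.38) for Insig1. For these 4 genes, and also for Lss, the LSK and LK estimates had opposite signs, and the SE values are large. The remaining differences were 0.15 (SE 0.34) for Lss, 0.10 (SE 1.21) for Fdps, -0.16 (SE 0.34) for Idi1 and -0.03 (SE 0.31) for Hmgcs1, whose sign changed with the scaling. The median difference over all genes was -0.12, -0.05 and -0.03 under the 3 scalings.

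The level of the genes in LSK against LK under PBS was compared in the same fit, where 19.4% of 13839 genes were called higher in LSK and 12.4% lower. Hmgcs1 was 1.69-fold higher in LSK and Sqle 1.64-fold lower, so 1 of the 8 was called in each direction. Hmgcs1 stood at 58.3, 70.2 and 53.1 CPM in LSK and 35.1, 33.5 and 39.1 CPM in LK (log2 fold change 0.75, SE 0.20, edgeR adjusted p = 0.0120). Sqle stood at 37.3, 33.0 and 34.2 CPM in LSK and 61.9, 58.4 and 50.8 CPM in LK (log2 fold change -0.71, SE 0.16, edgeR adjusted p = 0.00548). For both the populations were far apart, although the call of Hmgcs1 was lost without LK PBS replicate 1 (adjusted p = 0.0512) or replicate 2 (adjusted p = 0.0558), and Insig1 was added without LSK PBS replicate 2, giving 2 genes.

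Lss, at 21.4, 18.8 and 17.5 CPM in LSK and 29.5, 27.5 and 26.4 CPM in LK, did not overlap but was not called (log2 fold change -0.53, SE 0.21, edgeR adjusted p = 0.0767). DESeq2 and limma-voom called it, which raised their count of lower genes to 2. In all, 4 of the 8 were lower in LSK with no overlap (Sqle, Idi1, Fdft1 and Lss), against 21.8% of all genes, and 1 was higher (Hmgcs1), against 26.2%. The log2 fold changes of the other genes were 0.48 (SE 0.23) for Insig1, 0.24 (SE 0.19) for Cyp51, -0.31 (SE 0.21) for Idi1, -0.49 (SE 0.25) for Fdft1 and -1.003 (SE 0.78) for Fdps.

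Under IL-1β none of the 8 was called between LSK and LK, where 2.13% of genes were called higher and 2.27% lower, and 2 of the 8 had an unadjusted p under 0.05 upwards, against 10.9% of all genes. Cyp51 stood at 49.2 and 53.2 CPM in LSK and 27.8 and 27.2 CPM in LK (log2 fold change 0.90, SE 0.25, edgeR adjusted p = 0.0610), and DESeq2 called it. Hmgcs1 stood at 50.3 and 77.9 CPM in LSK and 39.6 and 37.5 CPM in LK (log2 fold change 0.73, SE 0.25, edgeR adjusted p = 0.117). Sqle, called under PBS, stood at 42.5 and 39.7 CPM in LSK and 44.9 and 44.7 CPM in LK under IL-1β (log2 fold change -0.12, SE 0.20). Its populations were thus close together under IL-1β, though the change from PBS did not pass the interaction test given above. No overlap was found for 2 genes higher in LSK and 5 lower, against 27.1% and 29.8% of all genes.

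Per kilobase of exon, with all 14 libraries scaled together, all 8 genes had their highest values in the MSC libraries. These cells were cultured and wild type whereas LSK and LK were sorted from mutant mice, so no test was made between them. In MSC with IL-1β, Insig1 had the highest level (65.0 CPM per kb), followed by Hmgcs1 (58.1), Cyp51 (42.0), Fdft1 (28.6), Sqle (25.4), Idi1 (12.8), Lss (7.94) and Fdps (2.05). Exon length covers every annotated isoform, which lowers the level of Lss, whose 10787 exon bases are the most of the 8. It also covers the shared sequence given above, which lowers the level of Fdps and to a lesser degree those of Fdft1 and Idi1. The places of these genes in the order are therefore uncertain.

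In LSK with PBS, the order per kb began with Hmgcs1 (11.8 ± 1.95 CPM per kb, SD, n = 3), Cyp51 (7.98 ± 2.09) and Insig1 (7.30 ± 1.65), and the last 2 did not differ beyond their spread. In LK with PBS it began with Sqle (9.98 ± 1.07 CPM per kb, SD, n = 3), Hmgcs1 (7.58 ± 0.557) and Cyp51 (7.36 ± 0.596), and again the last 2 did not differ beyond their spread. Fdps came last in each group, at 0.114 ± 0.0712 CPM per kb in LSK and 0.254 ± 0.153 in LK with PBS. Since 82.0% of the stretches of its main mRNA are shared with other genes, this place is that of its counted reads only.

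Across the 6 groups, neighbours in the order could often not be separated. Sqle fell into 6 groups with no overlap, from 5.59 ± 0.244 CPM per kb in LSK with PBS (n = 3) through 9.98 ± 1.07 in LK with PBS to 25.4 ± 0.330 in MSC with IL-1β (n = 2). For Insig1, the 4 LSK and LK groups ran from 5.43 to 7.30 CPM per kb and each overlapped its neighbour, while MSC stood at 39.6 ± 10.4 with PBS and 65.0 ± 0.108 with IL-1β. For Idi1, MSC with PBS (5.42 and 8.50 CPM per kb) overlapped LK with PBS (5.36 to 6.40). For Fdps, all neighbouring LSK and LK groups overlapped.

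**Figure D3:**
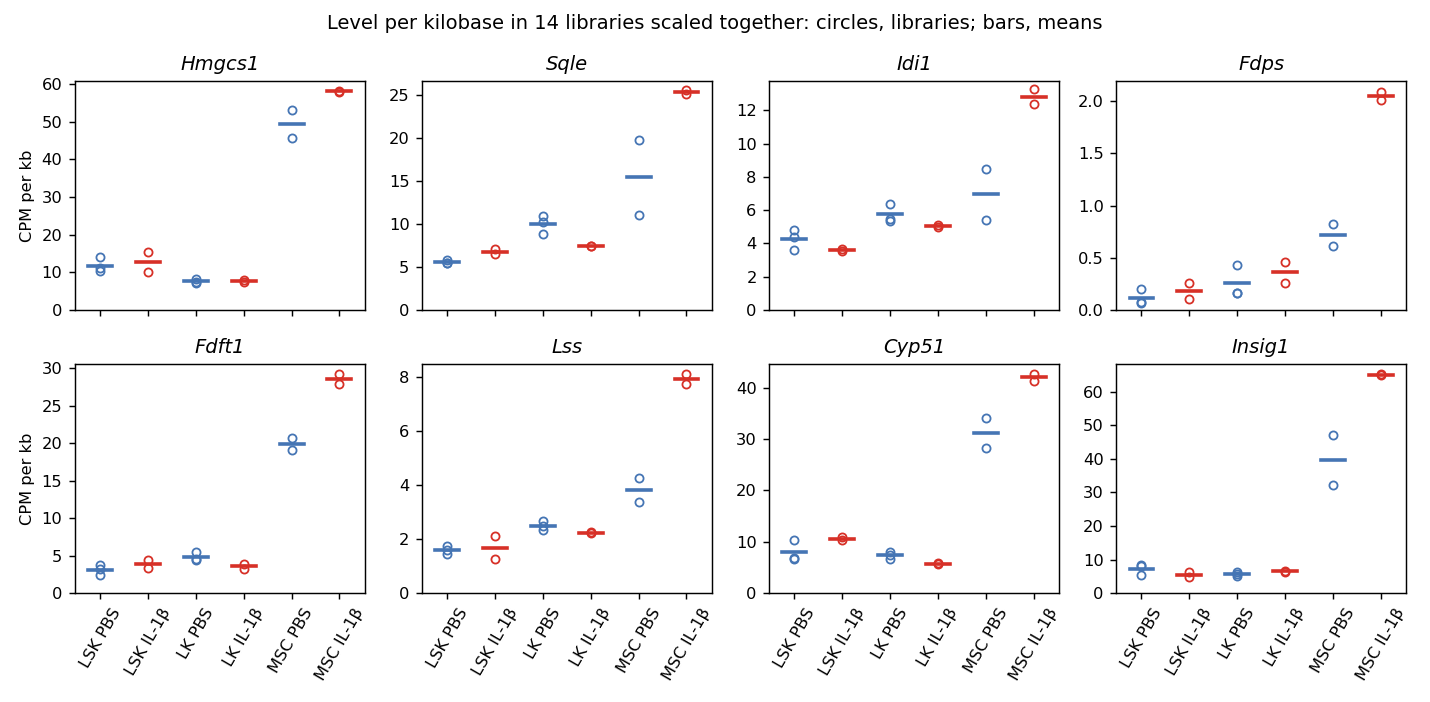
Level per kilobase of exon (CPM per kb, linear axes from 0) of each gene in the 6 groups, all 14 libraries scaled together; circles are libraries and bars are group means. MSC with IL-1β is the highest group for every gene and lies above MSC with PBS, whose circles overlap those of LK with PBS for Idi1, and for Lss the MSC means are 7.94 with IL-1β against 3.82 CPM per kb with PBS.

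The rest of the pathway was described with lists taken from the same steps. For every list below, the shares of all genes called higher and lower were 7.14% and 4.31% in MSC and 6.77% and 2.57% in LK. In LSK they were 0.320% and 0.312%. Between LSK and LK they were 19.4% and 12.4% under PBS and 2.13% and 2.27% under IL-1β. Among the mevalonate and isoprenoid genes, 3 of 6 rose in MSC, with a median log2 fold change of 0.76, and none fell. They included Mvd, which makes isopentenyl diphosphate (log2 fold change 1.09, SE 0.16, edgeR adjusted p = 0.0142), and Pmvk, the phosphomevalonate kinase (0.71, SE 0.15, adjusted p = 0.0347). Among the sterol steps after lanosterol, 3 of 9 rose in MSC and none fell (median 0.39). They included Tm7sf2, a sterol reductase (1.03, SE 0.13, edgeR adjusted p = 0.00960), and Hsd17b7, a sterol ketoreductase (0.79, SE 0.16, adjusted p = 0.0352). In LK and LSK none of these 15 genes was called, and 3 and 2 of them had an unadjusted p under 0.05, all upwards, as had 1795 of the 12835 genes tested in LK and 8.01% of those in LSK.

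Of the SREBP regulators, 0 of 6 were called in MSC, LK or LSK. An unadjusted p under 0.05 was found for 3 upwards in MSC (15.9% of all genes), 2 upwards in LK (1795 of 12835) and 1 downwards in LSK (10.5%). In MSC the log2 fold change was 0.45 for Srebf1 (SE 0.10, edgeR adjusted p = 0.0386, under the fold threshold), 0.45 for Srebf2 (SE 0.11, adjusted p = 0.0522), 0.37 for Scap (SE 0.10, adjusted p = 0.0660) and 0.08 for Insig2 (SE 0.11). The transcripts of both SREBP genes stood higher in both IL-1β libraries, Srebf2 at 184 and 163 CPM with PBS against 236 and 238 CPM. In LK the log2 fold change of Scap was 0.36 (SE 0.09, edgeR adjusted p = 0.0409, under the fold threshold), while Srebf1 (-0.12, SE 0.09), Srebf2 (-0.06, SE 0.16) and Insig2 (0.02, SE 0.21) did not pass. In LSK the log2 fold change of Srebf2 was -0.53 (SE 0.23, edgeR adjusted p = 0.255), at 263, 258 and 255 CPM with PBS and 190 and 169 CPM with IL-1β. The other LSK values were 0.34 (SE 0.23) for Srebf1, 0.02 (SE 0.25) for Scap and -0.14 (SE 0.35) for Insig2. Between LSK and LK under PBS, Srebf2 was 2.08-fold higher in LSK (edgeR adjusted p = 5.38e-04) and Mbtps2, a protease that cuts SREBP, 1.62-fold higher (adjusted p = 0.0183), so 2 of 6 were called, while Srebf1 had a log2 fold change of -0.40 (SE 0.14, adjusted p = 0.0459), Scap of 0.26 (SE 0.16) and Insig2 of 0.25 (SE 0.23). Under IL-1β none of the 6 was called, and the log2 fold changes, LSK against LK, were 0.56 for Srebf2 (SE 0.20, edgeR adjusted p = 0.136), 0.02 for Srebf1 (SE 0.17), -0.12 for Scap (SE 0.20) and 0.05 for Insig2 (SE 0.29). The interaction was not called for any of the 6 either, at 0.42 for Srebf1 (SE 0.22), -0.50 for Srebf2 (SE 0.25), -0.38 for Scap (SE 0.25) and -0.19 for Insig2 (SE 0.37).

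For uptake and intracellular transport, 2 of the 10 tested genes rose in MSC and none fell (median 0.18). One was Stard4, a cytosolic sterol carrier (0.74, SE 0.15, edgeR adjusted p = 0.0332). In LK 2 of 10 rose (median 0.32), among them Mylip, the ligase that degrades lipoprotein receptors, at 8.42, 11.2 and 9.94 CPM with PBS against 21.9 and 16.7 CPM with IL-1β (0.97, SE 0.22, edgeR adjusted p = 0.0289). In LSK 0 of 10 were called, and none had an unadjusted p under 0.05. Under PBS, 5 of 10 were higher in LSK than in LK and 1 was lower, against 19.4% and 12.4% of all genes. The largest differences were those of the lipoprotein receptor Vldlr (4.89, SE 0.31, on 11 to 26 read pairs in LK), Mylip (1.35, SE 0.23), Stard4 (1.25, SE 0.20) and the lysosomal transporter Npc1 (1.18, SE 0.32). Under IL-1β Vldlr (3.34, SE 0.35) and Stard4 (0.98, SE 0.25) were the 2 genes called higher in LSK.

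Among genes of esterification, oxysterols and efflux, 1 of 8 rose and 1 fell in MSC. Abca1, the cholesterol exporter, stood at 110 and 108 CPM with PBS and 365 and 327 CPM with IL-1β (1.67, SE 0.11, edgeR adjusted p = 0.00176), while Nr1h3, a sterol-sensing receptor, fell by 0.51 on the log2 scale (SE 0.10, adjusted p = 0.0271). Ch25h, a sterol hydroxylase, stood at 7.34 and 13.1 CPM with PBS and 14.3 and 12.1 CPM with IL-1β (0.34, SE 0.29, edgeR adjusted p = 0.486). In LK, Soat1, which esterifies cholesterol, rose from 17.3, 20.4 and 25.8 CPM to 66.0 and 54.5 CPM (1.51, SE 0.19, edgeR adjusted p = 0.00398), the 1 gene of 7 called. Abca1 had a log2 fold change of 0.04 (SE 0.33) in LK and of -1.45 (SE 0.34, edgeR adjusted p = 0.0873) in LSK, where it stood at 26.8, 37.6 and 32.0 CPM with PBS and 13.6 and 9.67 CPM with IL-1β. In LSK 0 of 7 were called. An unadjusted p under 0.05 was found for 1 upwards and 2 downwards, against 8.01% and 10.5% of all genes. Ch25h was at 0 counts in all LK libraries and at 1 count in 1 LSK library, and was not tested there. Under PBS, Abcg1 (2.59, SE 0.29), Abca1 (2.20, SE 0.28) and Soat1 (1.03, SE 0.21) were higher in LSK than in LK, which made 3 of 7, and under IL-1β 2 of 7 were, Abcg1 (1.48, SE 0.35) among them. Abca1 was not called under IL-1β (0.67, SE 0.36), and its interaction of -1.53 (SE 0.45) had an edgeR adjusted p of 0.202.

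Fatty acid synthesis shares SREBP control with cholesterol synthesis. In MSC 6 of its 10 genes rose and none fell (median 0.84), led by Fasn, the fatty acid synthase (1.13, SE 0.18), Acss2, which makes acetyl-CoA (1.09, SE 0.22), and the desaturases Scd1 (1.08, SE 0.12) and Scd2 (0.95, SE 0.14). In LK 1 of 9 rose and 2 fell. Scd2 rose (0.90, SE 0.19, edgeR adjusted p = 0.0278), whereas Scd1 fell from 8.42, 13.6 and 6.80 CPM to 3.18 and 1.44 CPM (-2.03, SE 0.46, adjusted p = 0.0292) and Fads2, another desaturase, fell from 166, 167 and 141 CPM to 89.0 and 87.1 CPM (-0.84, SE 0.11, adjusted p = 0.00460). In LSK none of 9 was called, 3 having an unadjusted p under 0.05 downwards, against 10.5% of all genes. Under PBS, Scd2 was higher in LSK than in LK (0.58, SE 0.19) and Scd1 (-3.45, SE 0.63) and Fads2 (-0.75, SE 0.15) were lower. Scd1 was also called lower in LSK under IL-1β, where its LSK libraries held 1 and 0 read pairs.

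Proliferation genes were set beside these, since dividing cells use the route. In MSC 4 of 10 fell and none rose (median -0.66), namely Pcna (-1.47, SE 0.20), Mki67 (-1.35, SE 0.15), Mcm5 (-0.79, SE 0.16) and Mcm2 (-0.58, SE 0.13), while the cholesterol synthesis genes stood higher. The part of cell division in the level of the cholesterol synthesis genes was not tested, and bulk libraries do not show which cells divided. The summed level of the proliferation genes was 832 to 1123 CPM with PBS and 409 to 453 CPM with IL-1β. In LK and LSK 0 of 10 were called, with unadjusted p-values under 0.05 for 2 and 1 of them, all downwards, against 10.8% and 10.5% of all genes. Under PBS, Ccnb1 was lower in LSK than in LK (-0.66, SE 0.17), and under IL-1β none was called.

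**Figure D4:**
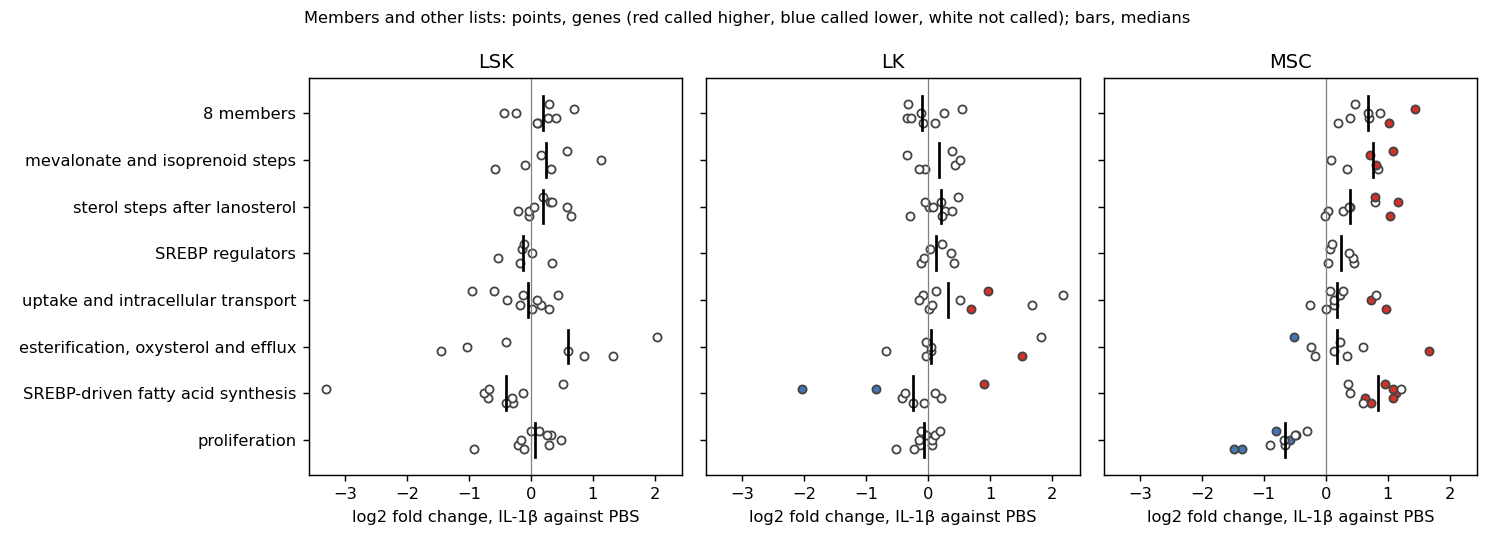
Log2 fold change, IL-1β against PBS, of the 8 cholesterol synthesis genes and of 7 further lists in LSK, LK and MSC; points are genes (red called higher, blue called lower, white not called) and bars are medians. In MSC the points of the sterol and fatty acid lists lie right of 0, apart from 1 of the steps after lanosterol, and those of proliferation lie left of it, with medians of 0.69 for the 8 genes and -0.66 for proliferation, and in LSK no point is filled.

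How far the 8 genes moved together was described over the 14 libraries, with each population's mean taken off. On the log2 scale the mean of the 8 then stood at -0.24 and -0.53 in MSC with PBS and at 0.39 and 0.38 with IL-1β. In the LSK and LK libraries it ran only from -0.10 to 0.16. Likeness to this mean therefore rests mostly on the difference between the MSC treatments. Of the 28 pairs of genes, 25 had a positive Pearson r, with a median of 0.464. With the mean of each treatment group taken off instead, 15 of 28 were positive and the median was 0.0520, so the typical r was near 0 within treatment groups. The libraries share treatment and differ in depth, and no p is given. The r of each gene with the mean of the 8, which includes that gene, ran from 0.276 for Hmgcs1 to 0.928 for Lss. Among 11183 genes tested in all 3 populations, those most like the mean of the 8 were Herc4 (r = 0.956), a ubiquitin ligase, Btg3 (0.941), an antiproliferative factor, Slc31a1 (0.939), a copper transporter, Apobec3 (0.936), an antiviral deaminase, and Sod2 (0.929), the mitochondrial superoxide dismutase. With group means taken off, r was 0.856, 0.937, 0.517, 0.588 and 0.0721 in the same order, and so lowest for Sod2. The widest gap then left in the mean of the 8 is that between the MSC libraries with PBS. These values of r therefore rest largely on that gap.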

How the data were processed

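The authors deposited, for every library, raw counts of the read pairs assigned to each gene, with the gene's exon length beside them. Per the file headers and the submitters' processing notes, reads were trimmed with fastp 0.20.0, aligned with HISAT2 2.0.1 to GRCm38 and counted with featureCounts 2.0.2 in reverse-stranded mode, which by default leaves out pairs with several matches or several overlapping genes. The methods name GenomicAlignments instead. Symbols came from GENCODE M21 and matched 55141 of 55487 identifiers. A further IL-1β MSC library named in one header was not analysed here.

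Testing used edgeR 4.0.16 under R 4.3.3 (filterByExpr filter, TMM scaling, robust quasi-likelihood fit and F test, Benjamini-Hochberg adjustment over all genes tested), treatments within a population and LSK against LK in a joint fit. SE is the log2 fold change divided by the root of F. Alternatives used limma 3.58.1 (voom), DESeq2 1.42.0, other scalings and filters (none, or at least 10 counts in 2 libraries), a replicate block, joint fits and each library left out. The test was checked on simulated data. CPM came from TMM-scaled library sizes, and log2 CPM with a prior count of 2 was used for likeness. Likeness r was ranked over all genes that passed the filter in each population. Figures were drawn with matplotlib 3.10.9.

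The members and gene lists were chosen with earlier results of these data known. Every member was named in every comparison. From each other list the called genes were named (over 5, the 4 largest), with Ch25h, Abca1, Srebf1, Srebf2, Insig2 and Scap named in every comparison where tested. A few list genes were counted but are not reported here by name.

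Deviations from group means were correlated between LSK and LK libraries. Libraries with one number gave 0.211, 0.128 and 0.472 under PBS and 0.100 under IL-1β. Differing numbers gave -0.381 to 0.162, with LSK 2 more like LK 1 than LK 2. With 2 IL-1β libraries per group the deviations mirror each other, so the IL-1β value counts only once. Mismatched PBS pairs also exceeded 0.1, at 0.124 for LSK 1 with LK 2 and 0.162 for LSK 2 with LK 1. The rule that every matched correlation exceed 0.1 was met but cannot decide whether the numbers pair the libraries. No label says that they mark 1 mouse, and a block by number was run as an alternative only.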

Additional observations from a re-analysis of the deposited data

Results flagged for a closer look

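Of the 8 genes, 5 had log2 fold changes of opposite sign with IL-1β in MSC and in a sorted population, with every library on its side of the PBS libraries when each population was scaled alone. Over all genes, 31.3% were higher with no overlap in MSC, and 22.2% in LK and 21.4% in LSK were lower with no overlap. The share of all genes with both was not counted, so the 5 have no background to be set against. Sqle had a log2 fold change of -0.35 in LK and 0.70 in MSC. Fdft1 had -0.33 in LK and 0.48 in MSC. Cyp51 had -0.28 in LK and 0.40 in MSC. Lss had -0.084 in LK and 1.03 in MSC. Idi1 had -0.24 in LSK and 0.88 in MSC, but with all 14 libraries scaled together its LSK treatments overlapped, the lowest PBS library standing at 3.61 CPM per kb and the highest IL-1β library at 3.69. These differences were not tested, and none of the LK or LSK values passed the threshold. The cells also differed in genotype, in culture against sorting, and in exposure, which was 16 weeks of injections against 72 h in the dish, and these cannot be told apart.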

How the results depend on the processing

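In MSC the number of members called higher was 2, and became 6 with no filter on low counts, 4 with DESeq2 or limma-voom and 1 in the joint fit of 14 libraries, with a range of 0 to 6 when each library was left out in turn. With a library left out, the lone library of a group is assumed to vary like the others. For LSK against LK under PBS, 1 member was called lower, and 2 were with DESeq2 or limma-voom (range 1 to 2 with libraries left out), while the 1 called higher became 0 to 2. Under IL-1β 0 members were called higher in LSK, and 1 was with upper-quartile factors, no filter or DESeq2, namely Cyp51 (range 0 to 2 with libraries left out). Member counts within LSK, within LK and for the interaction were 0 in both directions under every alternative run. Signs turned for uncalled values only. With libraries left out, the LSK log2 fold change ran from -0.13 to 1.18 for Fdps and from -0.31 to 0.42 for Lss (both lowest without IL-1β replicate 1). Fdps had enough reads to be tested in only 4 of these 5 fits. The range was -0.20 to 0.39 for Hmgcs1 (lowest without IL-1β replicate 2), and Lss became -0.00150 with the replicate block. Under IL-1β, Fdft1 in LSK against LK ran from -0.11 to 0.24, being below 0 without IL-1β replicate 2 of LSK or LK. The interaction of Hmgcs1 became 0.0305 with DESeq2's size factors, 0.0280 with DESeq2, 0.0551 with upper-quartile factors and 0.0824 with no filter, and with libraries left out it ran from -0.36 to 0.29, that of Fdps from -0.69 to 0.77 and that of Lss from -0.22 to 0.44. The cause of these changes was not tested. Counts over all genes moved more. In LSK, 42 higher and 41 lower became 355 and 514 with no filter, 417 and 488 with DESeq2, 19 and 2 with limma-voom, 547 and 681 in the joint fit, and 3 to 280 and 0 to 200 with libraries left out. In LK, 869 and 330 became 421 and 68 in the joint fit, with 693 lower without a filter, 176 lower with limma-voom, and 61 to 1499 and 5 to 910 with libraries left out. In MSC, 945 and 570 became 817 and 831 with upper-quartile factors, 1439 and 915 with no filter, 335 and 89 in the joint fit, and 38 to 2038 and 0 to 1781 with libraries left out. LSK against LK gave 2678 and 1716 under PBS (1677 to 2771 and 1064 to 2182 with libraries left out) and 295 and 314 under IL-1β, which became 716 and 694 with no filter, 654 and 682 with DESeq2, 60 and 122 with limma-voom, and 20 to 920 and 69 to 947 with libraries left out. The interaction, 1 and 3, became 170 and 228 with no filter, 112 and 220 with DESeq2, 0 lower with limma-voom, and 0 to 167 and 0 to 169 with libraries left out. With the replicate block, which pairs LSK and LK libraries by number, it became 1 and 23, and the block changed no call of a member. Within a population the PBS and IL-1β libraries of one number came from different mice, since each mouse received 1 treatment. Their correlations were 0.140 and -0.0386 in LSK and -0.103 and 0.0610 in LK. The deviations of the 2 IL-1β libraries mirror each other, so these values cannot show whether the numbers are linked. The block gave 314 and 388 in LSK and 1462 and 869 in LK. No block by number was run in MSC, where the treatments share only replicate number 2. Depth limits Fdps most, with 2 to 36 read pairs per LSK or LK library.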
